A study of Mus musculus with 8 samples.

Results

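The transforming growth factor beta (TGF-beta) family consists of secreted signalling proteins and of secreted or membrane-bound antagonists that restrain them. To determine where the histone mark H3K27-me3 lay over these genes in mouse liver, 37 of them were chosen by name, comprising 31 ligands or ligand subunits and 6 antagonists, and were matched to GENCODE release M21 among 21938 protein-coding genes. ChIP-seq for H3K27-me3 had been performed on livers of male C57BL/6 mice, all of which carried the JMJD3-floxed allele. JMJD3 is a demethylase that erases this mark, a trimethylated lysine on histone H3 that accompanies silent genes. At an age of 8 weeks the mice received AAV-TBG-Cre (AAV-Cre) for downregulation of JMJD3 or the control virus AAV-GFP, and livers were examined 12 weeks later after a fast of 16 h. Each virus group had 2 H3K27-me3 libraries and 2 input libraries.

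The promoter of TBG, a gene of hepatocytes, directs Cre to these cells and not to the endothelial, stellate, Kupffer and bile duct cells of the liver, and JMJD3 was not measured here in any cell type. The labels call the material primary liver cells, whereas the protocol describes chromatin of minced liver tissue, which holds all of these cell types. A region can therefore be gained because more cells carry the mark or because each cell carries more of it, and these cannot be told apart. Both H3K27-me3 libraries of a virus were combined by the authors into a single list of enriched regions, so there is no spread between mice, and no difference between AAV-Cre and AAV-GFP was tested. The depth of the libraries is unknown, since the lists hold no read counts. The AAV-Cre list held 59267 regions covering 73.7 Mb, with a median width of 753 bp, and the AAV-GFP list held 34586 regions covering 14.9 Mb, with a median width of 231 bp. The shortest region was 300 bp in AAV-Cre and 120 bp in AAV-GFP, so widths and numbers of regions are not on the same footing in the 2 lists. A q-value of 0.05 or lower was reached by 88.6% of the AAV-Cre regions and 46.8% of the AAV-GFP regions, and within 15 kb of the 37 genes by 89.8% and 60.0%, so a gene marked in both lists can rest on a weak AAV-GFP call. Because the AAV-Cre list covered 4.93 times as many bases over the whole genome, more mark over any gene of that list is read beside the same quantity over all genes.

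Ligands of the family bind as dimers to pairs of serine/threonine kinase receptors, and the receptors phosphorylate Smad proteins that carry the signal to the nucleus. TGF-beta and activin ligands act through one set of Smads and bone morphogenetic proteins (BMPs) through another, whereas antagonists such as noggin, chordin and follistatin trap ligands outside the cell. Many of the genes are developmental regulators with CpG-rich promoters, the type of promoter that Polycomb repressive complexes mark with H3K27-me3 where the gene is silent. In adult liver, BMP signals from endothelial cells set hepcidin levels in hepatocytes, TGF-beta drives fibrosis through stellate cells, and hepatocytes themselves secrete the activin subunits of Inhbc and Inhbe and the stress factor of Gdf15.

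Regions of H3K27-me3 lay near most of the genes in both lists. A gene counted as marked at 1 kb, or at 15 kb, when a region came that close to any of its start sites. Within 1 kb, 26 of the 37 genes (70.3%) were marked in AAV-Cre, against a background of 23.9% of all protein-coding genes, and 21 (56.8%) were marked in AAV-GFP, against 16.6%. Within 15 kb, 31 genes (83.8%) were marked in AAV-Cre, against 41.5%, and 27 (73.0%) in AAV-GFP, against 27.9%. In each list the family's share stood above that of all genes at both distances. The region lay directly over a start site in 22 genes in AAV-Cre (59.5%, background 19.5%) and in 15 genes in AAV-GFP (40.5%, background 11.0%). Regions touched the gene body of 27 genes in AAV-Cre (73.0%, background 28.8%) and of 23 genes in AAV-GFP (62.2%, background 20.7%). No gene of the family was marked in AAV-GFP alone at either distance. This was also rare over all genes, with a background of 0.287% within 1 kb and 1.22% within 15 kb. Within 1 kb, 5 genes were marked in AAV-Cre alone (background 7.62%), 21 in both lists (background 16.3%) and 11 in neither (background 75.8%). Within 15 kb the corresponding numbers were 4 genes in AAV-Cre alone (background 14.8%), 27 in both lists (background 26.7%) and 6 in neither (background 57.2%).

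The extent of the mark was measured as the share of bases inside a region in the 30 kb centred on the outermost start site. Over the 37 genes the AAV-Cre list had a median of 17.7% and a mean of 21.6%, and the AAV-GFP list had a median of 3.64% and a mean of 6.35%. Over all protein-coding genes the median was 0% in each list and the means were 6.93% and 2.02%. A typical gene of the family thus carried regions in its window and a typical protein-coding gene carried none. Shares ranged from 0% to 66.0% in AAV-Cre and from 0% to 23.1% in AAV-GFP. All 27 genes marked in both lists within 15 kb had more bases covered in AAV-Cre, as did 98.6% of all genes marked in both. Among these 27 genes the median ratio of covered bases, AAV-Cre over AAV-GFP, was 3.65, with a range from 1.24 to 20.98, and the median over all genes marked in both was 3.77. Summed over the family, regions covered 239942 bp in AAV-Cre and 70487 bp in AAV-GFP, a ratio of 3.40, compared to 3.43 over all genes. The gain in extent over these genes was therefore of about the size seen over genes in general.

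**Figure D1:**
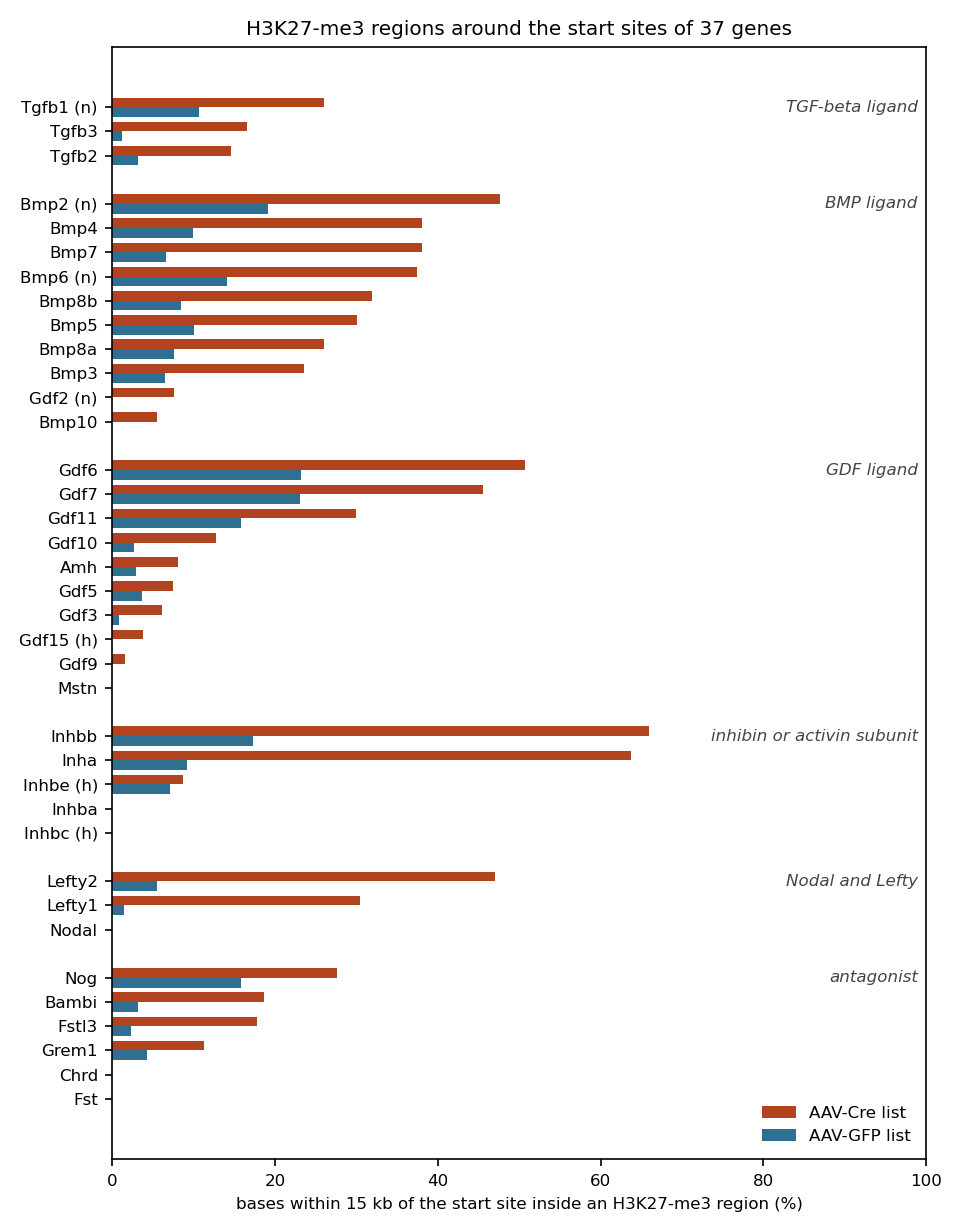
Share of bases inside an H3K27-me3 region within 15 kb of the outermost start site of each of the 37 genes, in percent, for the AAV-Cre and AAV-GFP lists, with genes grouped by role and ordered within a group by the AAV-Cre value (h, ligand made by hepatocytes; n, ligand made by other liver cells). Inhbb reached 66.0% in AAV-Cre and Gdf6 reached 23.1% in AAV-GFP, whereas Inhba, Inhbc, Nodal, Mstn, Chrd and Fst were at 0% in both lists.

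Regions near the genes were wider than those of the whole lists, whose median widths were 753 bp in AAV-Cre and 231 bp in AAV-GFP. They were not compared with regions near the start sites of other genes. In AAV-Cre, 157 distinct regions fell within 15 kb of the family's start sites, with a median width of 934 bp. Their median fold enrichment over input was 3.08, against 2.90 in the whole list. In AAV-GFP, 115 such regions had a median width of 272 bp and a median fold enrichment of 2.65, against 2.61 in the whole list. Of the AAV-GFP regions, 110 (95.7%) overlapped an AAV-Cre region, against 86.4% of the whole list, and of the AAV-Cre regions 58 (36.9%) overlapped an AAV-GFP region, against 24.2% of the whole list. Nearly every AAV-GFP region of the family was therefore also found in AAV-Cre, and most AAV-Cre regions had no counterpart in AAV-GFP. Those 58 AAV-Cre regions overlapped 1.93 AAV-GFP regions on average, and 26 of them spanned more than 1. These counts were not made over the whole lists, whose shortest regions differed (300 bp in AAV-Cre, 120 bp in AAV-GFP). They cannot be read as particular to these genes. The widest region near a gene was at least 5000 bp for 9 genes in AAV-Cre (background 6.75%) and for 0 in AAV-GFP (background 0.438%). A region among the strongest 10% of its list by p-value lay within 15 kb of 26 genes in AAV-Cre (background 20.0%) and of 14 in AAV-GFP (background 11.4%).

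The mark was centred on the start sites. Within 1 kb on either side, 53.7% of bases of the family were inside an AAV-Cre region and 32.1% inside an AAV-GFP region, compared to 16.3% and 7.69% over all genes. Most of all genes have no region in the window. Over the 9112 genes with an AAV-Cre region within 15 kb, the shares were 39.2% and 18.5%, with highest bins of 45.1% and 24.1%. In bins of 500 bp the AAV-Cre share was highest at 64.0%, from 0 to 499 bp downstream of the start, and the AAV-GFP share was highest at 39.1%, from 500 to 999 bp downstream. Over the 15 kb downstream of the start, into the gene, the shares were 24.4% and 8.42%, and over the 15 kb upstream they were 18.9% and 4.28%. The downstream side was thus covered more than the upstream side in both lists, with a wider gap in proportion in AAV-GFP.

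**Figure D2:**
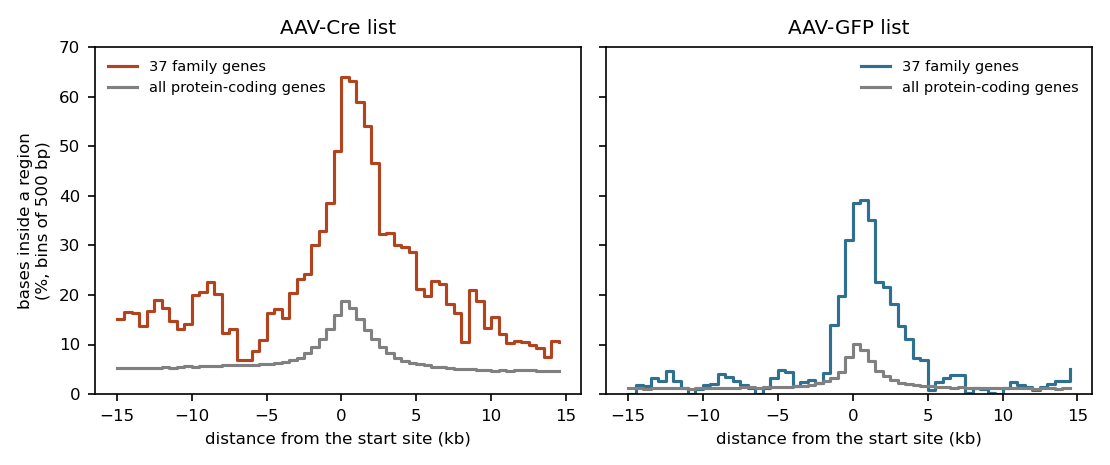
Percent of bases inside an H3K27-me3 region, in bins of 500 bp, plotted against the distance from the outermost start site in kb with genes pointing right, for the 37 genes and for all protein-coding genes in each list. Both family curves peak just downstream of the start, at 64.0% in AAV-Cre and 39.1% in AAV-GFP, above peaks of 18.7% and 10.0% over all genes.

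The 3 TGF-beta ligands are secreted in a latent form and drive fibrosis when activated in liver. All 3 were marked within 1 kb in both lists (background 16.3%). Tgfb1 (chr7:25687002-25705077 in mm10, plus strand) had 26.0% of its 30 kb covered in AAV-Cre and 10.6% in AAV-GFP. An AAV-Cre region of 2789 bp with a fold enrichment of 6.33 lay over its start site at chr7:25686922-25689710. Within this region lay 5 separate AAV-GFP regions of 134 to 417 bp, the closest 328 bp from the start site with a q-value of 0.0134. The strongest region near Tgfb1 in AAV-Cre (fold enrichment 12.7) lay upstream, over the start site of the neighbouring gene Tmem91. For Tgfb2 the covered shares were 14.5% in AAV-Cre and 3.14% in AAV-GFP. For Tgfb3 they were 16.5% and 1.14%, a ratio of 14.5, the second highest among the genes marked in both lists within 15 kb.

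The 10 BMP ligands pattern bone, heart and gut in the embryo. Of these, 9 were marked within 1 kb in AAV-Cre (background 23.9%) and 7 in AAV-GFP (background 16.6%). Bmp2 (chr2:133552159-133562885, plus strand), whose product from liver endothelial cells induces hepcidin, had the largest covered share of the group, at 47.6% in AAV-Cre and 19.1% in AAV-GFP. A single AAV-Cre region of 7195 bp (chr2:133550396-133557590, fold enrichment 9.48, q = 9.8e-52) ran across its start site. It overlapped 4 AAV-GFP regions, of which that over the start site was 2088 bp wide with a fold enrichment of 4.65, and the widest was 2377 bp with a fold enrichment of 6.76. Bmp6 (chr13:38345107-38500302, plus strand) encodes the other endothelial inducer of hepcidin and had covered shares of 37.4% and 14.0%. Its start site lay in a 6526 bp region in AAV-Cre (chr13:38343674-38350199, fold enrichment 12.99) and in a 3543 bp region in AAV-GFP (chr13:38344599-38348141, fold enrichment 8.00). Both ranked at the top of their lists, with a p-value at or below that of 99.9% of the regions. Bmp4, Bmp5, Bmp3, Bmp8a and Bmp8b were also marked in both lists, with shares from 23.6% to 38.0% in AAV-Cre and from 6.45% to 10.1% in AAV-GFP. Bmp8a and Bmp8b, a duplicated pair on chromosome 4, had start sites 238087 bp apart and separate regions.

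Anti-Mullerian hormone (Amh) and myostatin (Mstn) were counted among the 10 growth differentiation factors. Of the 10, 7 were marked within 1 kb in AAV-Cre (background 23.9%) and 5 in AAV-GFP (background 16.6%). Gdf6 and Gdf7, which act in joint and skeletal patterning and in neural development, carried the widest domains. The widest region of the whole family in either list lay over the start site of Gdf6 in AAV-Cre, at chr4:9841551-9852230 (10680 bp, fold enrichment 5.31). It overlapped 7 AAV-GFP regions, including that of 4589 bp over the start site (chr4:9843515-9848103, fold enrichment 4.50), which was the widest AAV-GFP region of the family. The covered share for Gdf6 came to 50.7% in AAV-Cre against 23.1% in AAV-GFP. For Gdf7 it was 45.5% and 23.0%. The AAV-Cre region of Gdf7 (chr12:8294755-8304748, 9994 bp, fold enrichment 14.4) covered 100% of the gene body, and the AAV-GFP regions, up to 3666 bp wide, covered 94.8% of it. Gdf11, a circulating ligand close to myostatin in sequence, had shares of 29.98% and 15.8%. Gdf5 and Gdf10 were marked in both lists with smaller shares, 7.43% and 12.7% in AAV-Cre and 3.64% and 2.67% in AAV-GFP.

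Of the 5 inhibin and activin subunits, Inhbb and Inha had a region over their start sites in AAV-Cre (background 19.5%) and AAV-GFP (background 11.0%). Inhba, Inhbc and Inhbe were marked within 1 kb in neither list (background 75.8%). Inhbb, the beta-B subunit shared by activin B and inhibin B, had the largest covered share of all 37 genes in AAV-Cre, at 66.0%, with 17.3% in AAV-GFP. Its AAV-Cre domain at chr1:119415923-119426211 was 10289 bp wide with a fold enrichment of 9.44 and overlapped 5 AAV-GFP regions, the widest of which was 2936 bp. Inha, the alpha subunit that turns an activin dimer into an inhibin, had shares of 63.8% and 9.15%. Its start site lay in an AAV-Cre region of 8996 bp and in an AAV-GFP region of only 231 bp. Inhba, the beta-A subunit of activin A, was far from any region, 207327 bp in AAV-Cre and 209206 bp in AAV-GFP.

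Nodal and its antagonists Lefty1 and Lefty2 set the left-right axis of the embryo. Both Lefty genes were counted among the 31 ligands and the 24 other ligands described below, and not among the 6 antagonists. The Lefty genes, whose start sites lie 41914 bp apart on chromosome 1, were covered broadly in AAV-Cre and narrowly in AAV-GFP. Lefty1 had 30.4% of its window covered in AAV-Cre and 1.45% in AAV-GFP, a ratio of 20.98 and the highest among the genes marked in both lists within 15 kb. The AAV-GFP share of Lefty1 came from a single 435 bp region with a q-value of 1.0. For Lefty2 the shares were 47.0% and 5.52%. Nodal had no region within 15 kb, and the nearest lay 23707 bp away in AAV-Cre and 144028 bp away in AAV-GFP.

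Of the 6 antagonists, 3 were marked within 1 kb in both lists (background 16.3%). Nog, which encodes the BMP trap noggin, had shares of 27.7% and 15.8%, and its single-exon body was covered to 100% by an AAV-Cre region of 6568 bp (fold enrichment 10.7) and to 81.1% by AAV-GFP regions. Grem1, encoding the BMP antagonist gremlin, had shares of 11.2% and 4.30%. Fstl3, a follistatin relative that binds activin and myostatin, had shares of 17.7% and 2.28%, and its single AAV-GFP region, 733 bp from the start site, had a q-value of 1.0.

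**Figure D3:**
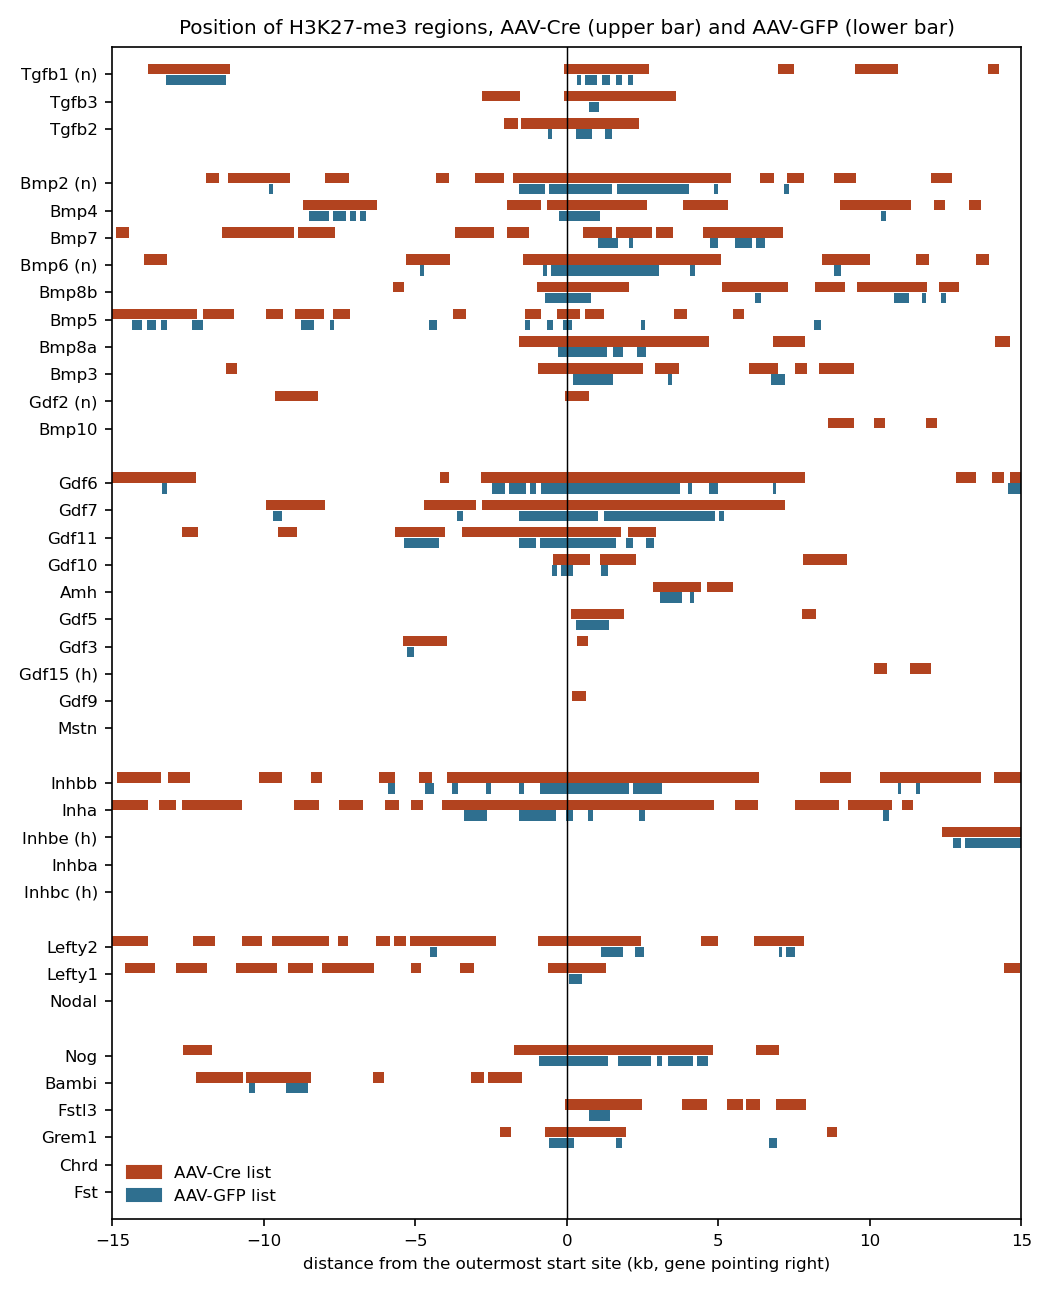
Position of each H3K27-me3 region within 15 kb of the outermost start site of the 37 genes, in kb with genes pointing right, with AAV-Cre regions as upper bars and AAV-GFP regions as lower bars (h, made by hepatocytes; n, made by other liver cells). Long AAV-Cre bars over the start sites of Gdf6, Inhbb and Gdf7 each lie above several shorter AAV-GFP bars, and the AAV-GFP regions of Bmp7 and Lefty2 begin 1020 and 1131 bp from their start sites.

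Ligands that the liver makes were then set beside the others. From general knowledge of the tissue, and not from any expression value of these mice, 3 ligands were taken as made by hepatocytes (Inhbc, Inhbe and Gdf15), 4 as made by other liver cells (Bmp2 and Bmp6 by endothelial cells, Gdf2 by stellate cells and Tgfb1 by several types), and 24 as other ligands. Within 1 kb, none of the 3 hepatocyte-made ligands was marked in either list, as was the case for 75.8% of all genes. All 4 ligands of other liver cells were marked in AAV-Cre (background 23.9%) and 3 in AAV-GFP (background 16.6%). Of the 24 other ligands, 19 (79.2%) were marked in AAV-Cre and 15 (62.5%) in AAV-GFP. Within 15 kb, 2 of the 3 hepatocyte-made ligands were marked in AAV-Cre (66.7%, background 41.5%) and 1 in AAV-GFP (33.3%, background 27.9%). At that distance all 4 ligands of other liver cells were marked in AAV-Cre and 3 in AAV-GFP. Of the other ligands, 21 (87.5%) and 19 (79.2%) were. For the hepatocyte-made ligands the median covered share of the 30 kb was 3.78% in AAV-Cre, with 0% in AAV-GFP. It was 31.7% and 12.3% for the ligands of other liver cells, and 24.8% and 4.58% for the other ligands. Taken as 1 group of 7, the liver-made ligands were marked within 1 kb at 57.1% in AAV-Cre and 42.9% in AAV-GFP, so the group combined genes with broad domains and genes with none. With 3 and 4 genes in the liver classes, these shares describe named genes and were not tested.

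Marker genes of liver cell types were listed to check the tissue. None of 9 hepatocyte markers, Alb and Hnf4a among them, had a region within 15 kb in AAV-Cre (background 41.5%) or AAV-GFP (background 27.9%). None therefore had one within 1 kb. Of 20 markers of other liver cells, 12 were marked within 1 kb in AAV-Cre (background 23.9%) and 10 in AAV-GFP (background 16.6%), including 5 of 5 stellate markers in both lists, 2 of 5 endothelial markers in both, 4 and 3 of 5 bile duct markers, and 1 and 0 of 5 Kupffer markers, which lay below the background. The part of the mixture of cell types in the regions of Bmp2, Bmp6, Gdf2 and Tgfb1 was not tested.

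**Figure D4:**
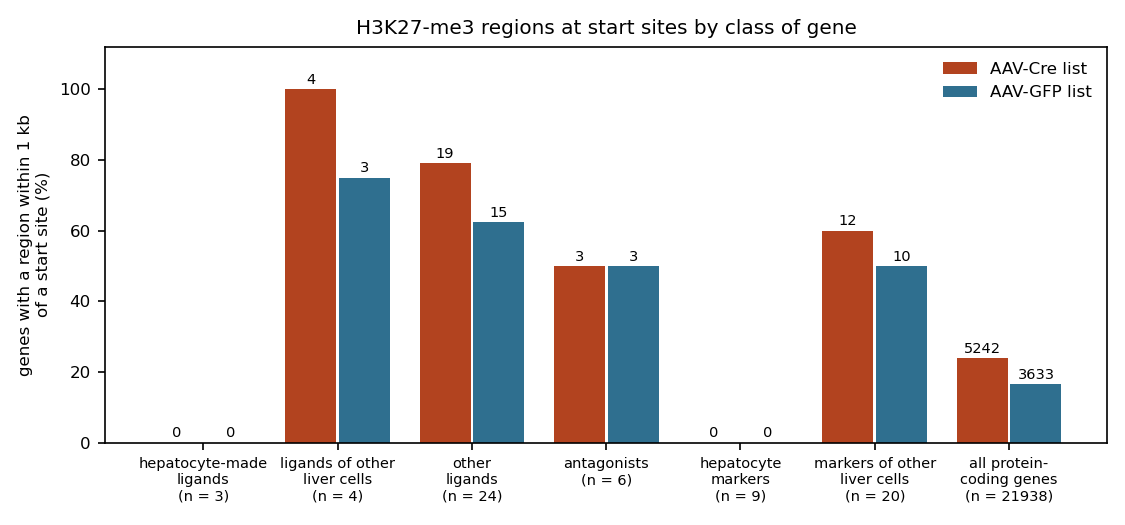
Percent of genes with an H3K27-me3 region within 1 kb of a start site, by class of gene, for the AAV-Cre and AAV-GFP lists, with the number of marked genes printed above each bar and the size of the class below it. Hepatocyte-made ligands and hepatocyte markers stand at 0 in both lists, and all other classes stand above the value for all protein-coding genes.

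Inhbc and Inhbe are neighbours on chromosome 10, both on the minus strand, with start sites 16020 bp apart and 1910 bp between the genes. They encode the beta-C and beta-E activin subunits, which are produced mainly by hepatocytes. The nearest region to both was the same in each list. In AAV-Cre it was chr10:127339243-127342021 (2779 bp, q = 1.5e-76), whose fold enrichment of 15.2 was the highest of all AAV-Cre regions within 15 kb of a gene of the family. It lay over the start site of Gli1, a transcription factor of Hedgehog signalling, 12390 bp from the start site of Inhbe and 28410 bp from that of Inhbc. In AAV-GFP, regions of 252 and 1860 bp (the latter with a fold enrichment of 5.50) lay at the same place, from 12759 bp of Inhbe and 28779 bp of Inhbc. Inhbe therefore counted as marked within 15 kb through the domain of its neighbour, with covered shares of 8.70% in AAV-Cre and 7.03% in AAV-GFP and the lowest ratio among the genes marked in both lists, 1.24, and Inhbc (chr10:127356322-127370431) had no region within 15 kb.

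Gdf15 (chr8:70629393-70632456, minus strand), a hormone of cell stress and energy balance, had no AAV-GFP region within 15 kb. The nearest lay 21385 bp away, by Ssbp4. Its AAV-Cre regions, of 429 bp (q = 0.023) and 705 bp (q = 0.00299), lay 9789 and 10965 bp from its start site, closer to the start site of Lrrc25. The stronger stood near the middle of its list, with 49.3% of AAV-Cre regions having a p-value as weak or weaker. The covered share came to 3.78% in AAV-Cre, with 0% in AAV-GFP.

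Gdf2 (chr14:33941039-33947198, plus strand), which encodes BMP9 of stellate cells, was the only one of the 7 liver-made ligands marked within 1 kb in AAV-Cre and not in AAV-GFP. Its AAV-Cre region at chr14:33940965-33941779 lay over the start site, was 815 bp wide and had a fold enrichment of 2.48 (q = 0.013). Only 25.2% of AAV-Cre regions had a p-value as weak or weaker. A second AAV-Cre region (chr14:33931396-33932833, fold enrichment 4.60) lay in a coding exon of Gdf10, whose start site is 17452 bp from that of Gdf2, and was the single region that fell within 15 kb of more than 1 gene of the family. The nearest AAV-GFP region was 16086 bp from the start site of Gdf2 and 1135 bp from that of Gdf10. The covered share of Gdf2 came to 7.51% in AAV-Cre, with 0% in AAV-GFP.

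The promoters of these ligands are shown here with their CpG content, whose part in the mark was not tested. Each runs from 250 bases before to 50 after the RefSeq start site on GRCm38.p6 (mm10), 5′ to 3′ on the strand of the gene, with every CG dinucleotide in capitals. The first 3 are the hepatocyte-made ligands Inhbc (chr10:127370499-127370798, minus strand, 4 CG), Inhbe (chr10:127351799-127352098, minus strand, 6 CG) and Gdf15 (chr8:70632407-70632706, minus strand, 1 CG). Gdf2 (chr14:33940789-33941088, plus strand, 6 CG) and Bmp6 (chr13:38345466-38345765, plus strand, 27 CG) were added after their values were seen. Gdf7 (chr12:8301905-8302204, minus strand, 26 CG) and Inhbb (chr1:119422199-119422498, minus strand, 23 CG) stand for the widest AAV-Cre domains.
Inhbc: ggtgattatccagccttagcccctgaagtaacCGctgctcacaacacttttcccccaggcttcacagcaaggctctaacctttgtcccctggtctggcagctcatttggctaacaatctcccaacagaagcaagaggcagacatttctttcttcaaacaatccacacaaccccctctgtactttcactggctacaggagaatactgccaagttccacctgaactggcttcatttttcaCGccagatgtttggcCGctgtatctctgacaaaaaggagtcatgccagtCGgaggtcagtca
Inhbe: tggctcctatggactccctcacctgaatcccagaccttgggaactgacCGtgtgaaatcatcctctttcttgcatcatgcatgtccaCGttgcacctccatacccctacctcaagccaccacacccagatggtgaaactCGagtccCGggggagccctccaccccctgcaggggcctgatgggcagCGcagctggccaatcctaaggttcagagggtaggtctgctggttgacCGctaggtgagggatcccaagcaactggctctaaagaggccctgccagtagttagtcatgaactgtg
Gdf15: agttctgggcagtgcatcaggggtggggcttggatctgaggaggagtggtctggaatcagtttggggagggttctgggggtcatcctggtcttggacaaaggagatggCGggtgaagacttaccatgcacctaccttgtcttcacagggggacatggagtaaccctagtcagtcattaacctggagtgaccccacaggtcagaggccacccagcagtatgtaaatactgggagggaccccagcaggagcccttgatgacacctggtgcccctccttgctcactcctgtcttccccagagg
Gdf2: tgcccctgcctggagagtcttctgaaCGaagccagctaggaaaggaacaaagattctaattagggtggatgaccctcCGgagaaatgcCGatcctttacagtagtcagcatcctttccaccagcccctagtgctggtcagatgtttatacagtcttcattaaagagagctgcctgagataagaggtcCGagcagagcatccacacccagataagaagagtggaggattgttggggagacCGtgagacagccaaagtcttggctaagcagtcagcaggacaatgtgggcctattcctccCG
Bmp6: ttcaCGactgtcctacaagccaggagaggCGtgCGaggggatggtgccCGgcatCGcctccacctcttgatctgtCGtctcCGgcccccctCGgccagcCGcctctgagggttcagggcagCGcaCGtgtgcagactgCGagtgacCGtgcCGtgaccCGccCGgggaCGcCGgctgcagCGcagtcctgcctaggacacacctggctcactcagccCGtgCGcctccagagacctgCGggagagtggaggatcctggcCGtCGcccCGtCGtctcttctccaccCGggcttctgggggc
Gdf7: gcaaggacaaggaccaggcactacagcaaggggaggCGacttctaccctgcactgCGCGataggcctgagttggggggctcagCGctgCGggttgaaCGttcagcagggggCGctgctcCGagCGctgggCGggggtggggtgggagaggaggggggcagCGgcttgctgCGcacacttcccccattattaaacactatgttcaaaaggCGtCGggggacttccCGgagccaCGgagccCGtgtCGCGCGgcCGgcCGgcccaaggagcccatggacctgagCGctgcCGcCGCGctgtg
Inhbb: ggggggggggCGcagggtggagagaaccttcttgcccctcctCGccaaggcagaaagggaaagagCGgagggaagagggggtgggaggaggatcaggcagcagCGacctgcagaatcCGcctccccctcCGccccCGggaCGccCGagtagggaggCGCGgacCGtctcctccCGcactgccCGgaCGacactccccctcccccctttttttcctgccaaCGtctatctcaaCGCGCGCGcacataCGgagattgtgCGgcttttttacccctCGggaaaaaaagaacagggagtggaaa

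The RefSeq start sites of Inhbc, Inhbe and Bmp6 lie 117, 2563 and 609 bp from the outermost GENCODE start sites used for the distances above. From the RefSeq start sites the nearest AAV-Cre region was 28527 bp away for Inhbc, 9827 bp for Inhbe and 10150 bp for Gdf15, where the 9789 bp given above is from the nearest of its GENCODE start sites. The RefSeq start sites of Gdf2, Bmp6, Gdf7 and Inhbb lay inside an AAV-Cre region, and those of Bmp6, Gdf7 and Inhbb, but not of Gdf2, inside an AAV-GFP region. Over all 32851 RefSeq promoters of the same length the median number of CG was 7, with quartiles of 3 and 20, and over the 24 promoters matched to 23 of the 37 genes it was 11, with quartiles of 5.75 and 26.25. Of 2 motifs searched on both strands, GGGCGG, the GC box, was found in the promoters of Bmp6, Gdf7 and Inhbb, in 50% of the family promoters and in 35.7% of all promoters. TATAAA was found in that of Gdf2, in 25% of the family promoters and in 13.6% of all promoters.

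The same was examined over all 37 genes with the CpG observed/expected ratio within 1 kb of the outermost start site, where 1 would be the number of CpG given by the base composition. The median was 0.589 (range 0.202 to 0.893) for the 26 genes marked within 1 kb in AAV-Cre and 0.399 (range 0.0976 to 0.818) for the 11 others, compared to 0.501 and 0.473 over all genes. For the 21 genes marked in both lists it was 0.6004, and for the 5 marked in AAV-Cre alone it was 0.262, compared to 0.556 and 0.333 over all genes. By class the median was 0.263 for the hepatocyte-made ligands, 0.683 for the ligands of other liver cells and 0.464 for the other ligands. The ranges overlapped, and single genes went against the order, since Fst at 0.818 had no region within 15 kb and Lefty1 and Lefty2, below 0.3, were broadly covered. These values are a description, because genes are not independent replicates.

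**Figure D5:**
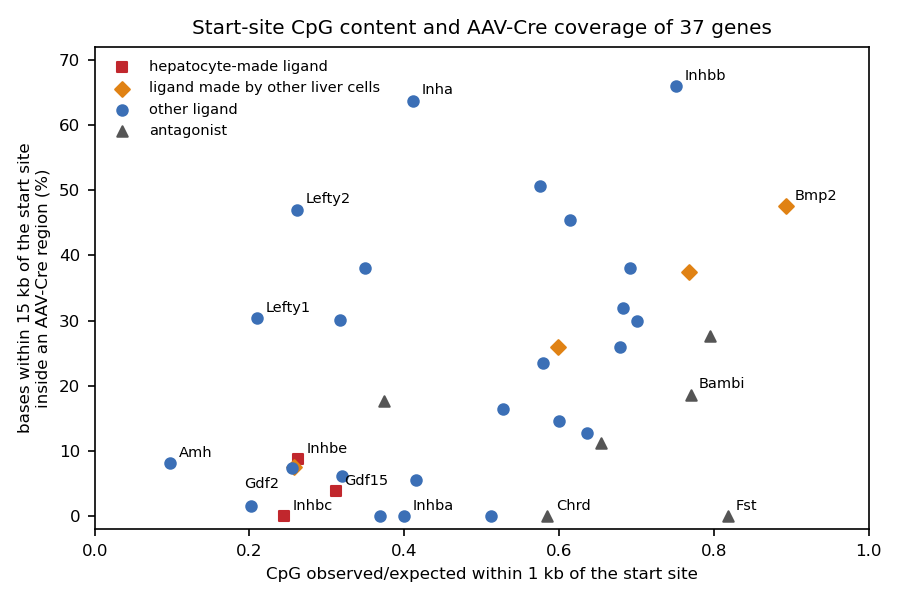
Share of bases inside an AAV-Cre H3K27-me3 region within 15 kb of the start site, in percent, against the CpG observed/expected ratio within 1 kb of the start site, with 1 point per gene and the class of gene given by colour and shape. Hepatocyte-made ligands lie at low CpG and low coverage, Bmp2 is high on both axes, and Lefty1, Lefty2 and Inha lie at high coverage with low to middle CpG.

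The genes marked in AAV-Cre alone fell into those with an AAV-GFP region just beyond 1 kb and those with weak AAV-Cre regions. Bmp7, a ligand of kidney and eye development, had a 963 bp AAV-Cre region 541 bp from its start site (q = 3.5e-07) and a 677 bp AAV-GFP region 1020 bp away, with covered shares of 38.0% and 6.58%. Lefty2 had a 3411 bp AAV-Cre region over its start site (fold enrichment 5.18, q = 6.2e-13) and a 733 bp AAV-GFP region 1131 bp away. On the near side of the 1 kb limit, the AAV-GFP regions of Tgfb3 and Fstl3 lay 729 and 733 bp from a start site, so these genes counted as marked in both lists. Gdf3, a ligand of early embryos and pluripotent cells, had a 377 bp AAV-Cre region 320 bp from its start site (fold enrichment 2.21, q = 0.0557). A 1462 bp AAV-Cre region of Gdf3 that overlapped its 226 bp AAV-GFP region, 5059 bp from the start site, was stronger. Gdf9, an oocyte factor, had a 472 bp AAV-Cre region 156 bp from its start site (fold enrichment 2.07, q = 0.152), weaker by p-value than all but 1.5% of the list, and the nearest AAV-GFP region lay 42636 bp away.

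Within 15 kb the genes marked in AAV-Cre alone were Bmp10, Gdf2, Gdf9 and Gdf15. Bmp10, a heart ligand that circulates with BMP9, had 3 AAV-Cre regions from 8606 bp onward. The first, of 888 bp (q = 0.0086), reached into the end of its untranslated sequence. It covered 0.898% of the gene body and lay mostly beyond the gene. The nearest AAV-GFP region lay 19888 bp away. Among the 16 genes without an AAV-GFP region within 1 kb, 5 (31.2%) had one in AAV-Cre, compared to 9.13% of all genes without one, and within 15 kb the share was 4 of 10 (40%), compared to 20.6%. Over the whole family these were 5 of 37 within 1 kb, above the background of 7.62%. Within 15 kb they were 4 of 37, below the background of 14.8%. The calls depended on list length. The AAV-Cre list was therefore also shortened to its strongest 34586 regions, the number in the AAV-GFP list. Genes marked in AAV-Cre alone within 1 kb were then 2 of 37, Bmp7 and Lefty2, a share near the background of 5.55%. Within 15 kb there was 1 of 37, Gdf2, a share below the background of 9.9%. That call for Gdf2 came from the region in a coding exon of Gdf10. The weaker region over the start site of Gdf2 was no longer in the list.

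The genes without a region within 1 kb in either list were Inhba, Inhbc, Nodal, Mstn, Chrd and Fst, which had none within 15 kb, and Bmp10, Gdf15, Inhbe, Amh and Bambi. Mstn, which restrains muscle growth, was 106352 bp from the nearest AAV-Cre region and 107553 bp from the nearest AAV-GFP region. Chrd, encoding chordin, was 73815 and 87697 bp away. Fst, encoding the activin trap follistatin that hepatocytes secrete, was 18197 and 24116 bp away. Amh, which regresses the Mullerian duct, had its nearest regions 2830 and 3080 bp away, closer to the start site of Jsrp1. Bambi, a pseudoreceptor that blunts TGF-beta and BMP signals, had an AAV-Cre region 1473 bp from its start site and AAV-GFP regions from 8534 bp onward whose q-values were 0.665 and 1, with covered shares of 18.7% and 3.15%.

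Other genes of the pathway, from receptors to targets, were counted in the same way. Of 54 other pathway genes, 24 (44.4%, background 23.9%) were marked within 1 kb in AAV-Cre and 18 (33.3%, background 16.6%) in AAV-GFP. The subgroups were small, and the counts of the target genes lay near these backgrounds. None of the 8 Smads, the intracellular transducers, was marked within 1 kb in either list, and 3 of them (Smad4, Smad5 and Smad7) had an AAV-Cre region within 15 kb, a share below the background of 41.5%. Of 14 receptors, the same 5 were marked in both lists, namely Acvr1c, Acvrl1, Bmpr1b, Tgfbr2 and Tgfbr3. Of 8 genes of latency and activation, the same 5 were marked in both, the latent TGF-beta binding proteins Ltbp1, Ltbp2, Ltbp3 and Ltbp4 and the anchor of latent TGF-beta, Lrrc32. Of 11 further antagonists, 8 were marked in AAV-Cre and 5 in AAV-GFP, and of 5 co-receptors 4 and 2. Of 8 target genes, Id4 was marked in AAV-Cre alone and Ctgf (Ccn2 in the annotation) in both, while Hamp, which encodes hepcidin and is a target of Bmp2 and Bmp6 signals in hepatocytes, had no region nearer than 26624 bp in AAV-Cre and 35275 bp in AAV-GFP. The pathway genes marked within 1 kb in AAV-Cre alone were the Nodal co-receptors Tdgf1 and Cfc1, the antagonists Chrdl1, Cer1 and Sostdc1, and Id4. For Cfc1, Id4 and Sostdc1 the nearest AAV-GFP region lay 1004, 1156 and 1622 bp from a start site. The differences between groups of pathway genes were not tested.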

How the data were processed

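Whole-liver H3K27-me3 ChIP-seq of the 2 virus groups was analysed from the peak lists that the authors deposited, 1 list per virus. The authors mapped reads to mm10, filtered them and called peaks with MACS against pooled input, and kept peaks that overlapped across replicates. The submitters' processing notes name BWA 0.7.13, SAMtools 1.2 and Picard 1.126. For each peak the deposited lists give a fold enrichment over input (a ratio), a p-value and a q-value as −log10, and a display score that was not used. Folds, p- and q-values were used only within a list. Broad domains called as narrow peaks are split into several regions. Groups were taken from the labels, and 0 columns belonged to samples of another series. Absolute depth is unknown.

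Start sites were those of basic protein-coding transcripts of GENCODE M21 on GRCm38. A gene was marked when a region came within 1 or 15 kb, and an overlap needed at least 1 bp. Python 3.11.15, numpy 2.4.6, pandas 2.3.3 and matplotlib 3.10.9 were used. On 400 genes and 17038 simulated regions, 100% of the calls equalled a direct search. No set test or permutation was run. Alternatives were q-values of 0.05 or 0.01 at most, 34586 top peaks per list, widths of at least 300 bp, windows of 5 and 50 kb, all transcripts, at least 0.5 of a region inside the gene body, merging within 5 kb, and a narrower and a wider set of liver-made ligands.

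The members and lists were chosen with earlier results of these data known. Named in full were the liver-made ligands, genes marked in 1 list only or within 1 kb in neither, the 3 genes with the widest region in each list, and pathway genes marked within 1 kb in 1 list only. Promoters were shown for the hepatocyte-made ligands and the genes with the widest AAV-Cre regions where the RefSeq table held them.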

Additional observations from a re-analysis of the deposited data

How the results depend on the processing

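Of 104 values recomputed under 11 alternatives, 93 stayed within a factor of 1.5 of the reported value and 11 moved. Counts near 37 could not rise by that factor, and a difference between lists could close within it. With the same number of top peaks, 23 genes in each list had a region over the gene body (27 and 23 as reported). Within 15 kb, 28 were then marked in AAV-Cre (background 36.0%) and 27 in AAV-GFP (background 27.9%). With at least 0.5 of a region inside the gene body, 23 genes in each list had one. The share of all genes was not counted for these gene-body values. Genes marked in AAV-GFP alone were 0 in each of the 7 alternatives for which this was counted. Genes marked in AAV-Cre alone within 1 kb (5 as reported) were 2 with the same number of top peaks (background 5.55%). They were 3 with start sites of all transcripts (background 8.14%). Within 15 kb (4 as reported) they were 7 at a q-value of 0.01 or lower (background 19.3%). They were 1 with the same number of top peaks (background 9.9%) and 1 within 50 kb of a start site (background 17.2%). A count can stay while its genes change. At a q-value of 0.05 or lower, the 5 genes within 1 kb (background 9.64%) were Bmp7, Gdf2, Lefty2, Lefty1 and Fstl3, without Gdf3 and Gdf9. Within 15 kb there were then 6 genes (background 19.3%). At a q-value of 0.01 or lower, the median AAV-GFP share of the 30 kb fell to 1.55% and the median widest AAV-GFP region to 294 bp, from 3.64% and 733 bp. Merging peaks up to 5 kb apart made the median widest region 8744 bp in AAV-Cre (2663 bp as reported) and 1969 bp in AAV-GFP. With hepatocyte-made ligands alone, the liver-made share marked within 1 kb was 0% in AAV-Cre, with 0% in AAV-GFP. The cause of these moves was not tested beyond what each alternative changes by construction.

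No paired analysis was possible because each list pools both mice of a group. For the same reason no value was recomputed without a single mouse. A gene without a region is one without a call at the unknown depth of its list.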
